A study of Mus musculus with 40 samples.

Results

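Tubulins are the α and β subunits of microtubules, and 9 genes of this family were followed in gonadal white adipose tissue of mice: the α-tubulin genes Tuba1a, Tuba1b, Tuba1c and Tuba4a and the β-tubulin genes Tubb2a, Tubb2b, Tubb4b, Tubb5 and Tubb6. They were chosen on measured values: Tuba1a had stood out among all probes when fat-fed and control-fed offspring of fat-fed dams were compared, and its relatives were added by name. The values of that comparison are therefore a description here, given without a test. Of the 16593 named genes on the array, 8 of the 9 were measured, by 14 of its 25697 probes. Tuba1c had no probe in the platform annotation.

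The 40 animals were nine-week-old C57BL/6J males, an inbred strain that gains weight on fat-rich food, and each gave 1 bead array of whole gonadal fat. Dams were kept on 1 of 2 diets, low in fat (LF) or rich in fat (HF), from before mating to weaning, and their sons were then given LF or HF. This made 4 groups of 10, written with the maternal diet first: LL (dams LF, offspring LF), LH (dams LF, offspring HF), HL (dams HF, offspring LF) and HH (dams HF, offspring HF). The animals came from 12 breeding cages, 6 per maternal diet, each with a sire and its females, so animals of a cage are related and were reared together, and p-values that ignore cages may be too small.

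Microtubules are built from α/β dimers, and the isotypes encoded by different genes co-assemble. Tuba1a is best known from developing neurons, Tuba1b and Tubb5 are made in most dividing cells, Tubb4b is also a component of cilia and sperm tails, and Tubb6 is found broadly outside the nervous system. In fat cells microtubules carry glucose transporter vesicles and help position lipid droplets, and they are rearranged when precursor cells become adipocytes. In whole tissue, a change in cell number and a change in RNA per cell cannot be told apart.

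The promoters shown are those of Tuba1a and Tuba1b, whose intensities followed each other across animals, and that of Tubb4b, which followed neither. Each runs from 250 bases before to 50 bases after the annotated start of the gene (RefSeq, GRCm38.p6) and is printed 5′ to 3′ on the strand of the gene. Tuba1a lies at chr15:98953452-98953751 (minus strand), Tuba1b at chr15:98934341-98934640 (minus strand) and Tubb4b at chr2:25224653-25224952 (minus strand). Capitals mark matches on either strand to the CCAAT box (CCAAT), the GC box (GGGCGG) and the TATA box (TATAAA).

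Tuba1a: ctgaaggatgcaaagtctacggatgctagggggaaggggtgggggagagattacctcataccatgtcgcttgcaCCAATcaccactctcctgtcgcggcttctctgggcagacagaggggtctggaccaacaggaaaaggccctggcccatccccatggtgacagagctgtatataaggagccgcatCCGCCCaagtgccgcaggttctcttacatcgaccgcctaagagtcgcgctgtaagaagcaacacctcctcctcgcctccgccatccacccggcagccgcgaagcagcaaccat
Tuba1b: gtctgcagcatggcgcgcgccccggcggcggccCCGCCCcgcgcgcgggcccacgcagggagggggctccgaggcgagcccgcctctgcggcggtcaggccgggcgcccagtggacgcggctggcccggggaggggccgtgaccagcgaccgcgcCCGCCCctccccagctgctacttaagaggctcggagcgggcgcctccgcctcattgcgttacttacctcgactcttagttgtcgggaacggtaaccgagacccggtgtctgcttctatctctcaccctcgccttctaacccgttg
Tubb4b: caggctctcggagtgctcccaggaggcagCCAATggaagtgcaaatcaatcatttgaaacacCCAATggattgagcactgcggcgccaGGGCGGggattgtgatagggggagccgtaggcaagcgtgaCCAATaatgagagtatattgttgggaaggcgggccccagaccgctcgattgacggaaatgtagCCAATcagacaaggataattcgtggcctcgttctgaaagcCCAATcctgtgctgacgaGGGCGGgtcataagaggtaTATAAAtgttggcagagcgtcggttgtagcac

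The Tubb4b promoter held 5 CCAAT matches, Tuba1a held 1 and Tuba1b 0, where 37.4% of 32851 promoters of this length held at least 1. Both α-tubulin promoters had GC box matches, 1 in Tuba1a and 2 in Tuba1b, as 35.7% of promoters did. Neither had TATAAA, which 13.6% of promoters held and Tubb4b had 1 of. The serum response element, searched as the CArG box on both strands, matched in none of the 3 windows and in 1.63% of promoters. A match is only a run of letters.

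Adipocyte genes checked the tissue label. Adipoq, the gene of the fat cell hormone adiponectin, was above background on 40 of 40 arrays, with medians of 25944 to 30103 units by group. The testis lies beside this pad, and 11 of 12 genes of a testis list were on the array (7 past the filter on dim probes). Their geometric mean ran from 74.8 to 4938 units in LL, 73.8 to 875 in LH, 74.2 to 2147 in HL and 72.4 to 401.0 in HH, and the protamine gene Prm1 was above background on 37 arrays. More than 4-fold above the median array stood 5 arrays, called testis-rich here: LL animal 4, LH animal 5 and HL animals 2, 6 and 8. HH had none. Group differences below use all arrays, and the value without these 5 is given for Tuba1a and wherever it moved a difference of Tuba1b or Tubb6 by over 1.5 times.

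Tuba1a (probe ILMN_2916705) was above background on 40 of 40 arrays. In LL it ran from 1677 to 9773 units with a median of 5859. In LH it ran from 2164.5 to 15705 units (median 7687). In HL it stayed between 2011 and 5165 units (median 3405). In HH it ran from 3708 to 11592 units (median 6845). HL was thus the lowest and most uniform group, LH the most spread, and every group overlapped its neighbours. In HH, 7 of 10 animals lay above the highest HL animal and 10 of 10 above the HL median, in the comparison that chose the gene. In LH, 4 of 10 animals exceeded the highest LL animal. The share of all probes with such counts was not taken, so these counts are descriptions and are not set against each other. The mean log2 intensity was 11.60 ± 0.47 (SD, n = 10) in HL, 12.20 ± 0.82 in LL, 12.74 ± 0.59 in HH and 12.89 ± 0.90 in LH, with 10 animals in each. In that order, none of the steps between neighbours that were tested (HL to LL and HH to LH) passed the test, and LL to HH differ in both diets and were not compared.

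**Figure D1:**
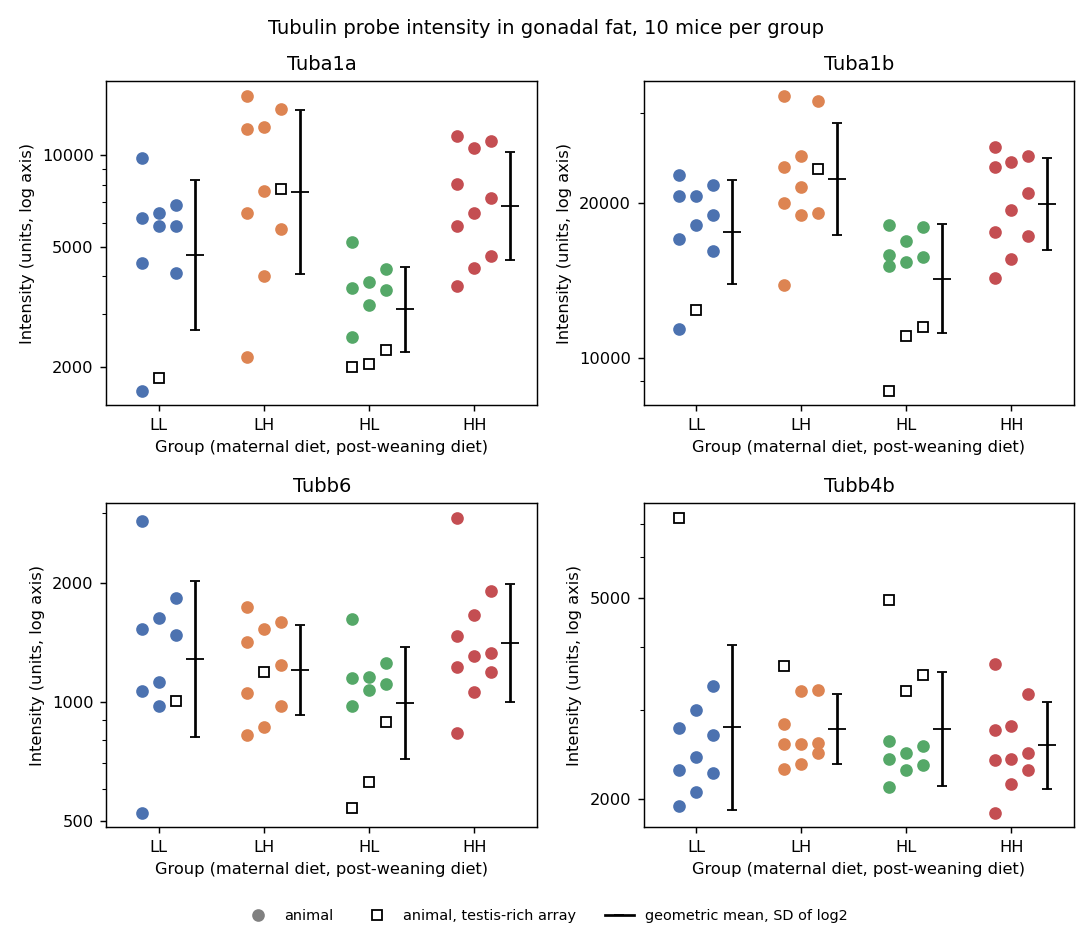
Intensity of Tuba1a, Tuba1b, Tubb6 and Tubb4b (units, log axis) in each animal of the groups LL, LH, HL and HH, with the geometric mean and the SD of log2 values beside each group; open squares are the 5 testis-rich arrays. The 3 testis-rich HL arrays are the lowest of their group for Tuba1a, Tuba1b and Tubb6 and the highest for Tubb4b.

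The post-weaning diet was first compared in offspring of LF fed dams, animals that took no part in the choice of the genes. Tuba1a was 1.62-fold higher in LH than in LL, a log2 difference of 0.70 ± 0.36 (SE, n = 10 each), which was within the replicate spread (limma, adjusted p = 0.42). No tubulin probe passed (0 of 10, where 0.218% of 14244 probes did in limma), and 1 of the 10 had an unadjusted p under 0.05, that of Tuba1b, beside 12.8% of all probes. Without the testis-rich arrays the Tuba1a difference was 0.54 ± 0.37 on the log2 scale. LL animal 1, the lowest of the group at 1677 units, was not testis-rich but carried more than 2-fold the median testis signal. Its mean log2 level of epididymis and seminal vesicle genes was 10.56, against 6.49 and 6.46 in LL animals 2 and 3 of its cage. For adipocyte genes its mean was 10.21, against 11.73 and 11.77. Without all 11 arrays past the 2-fold testis limit the Tuba1a difference was 0.26 ± 0.34.

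In offspring of HF fed dams, the comparison that chose it, Tuba1a was 2.20-fold higher in HH than in HL, a log2 difference of 1.14 ± 0.22. It was the one tubulin probe of 10 past the threshold, where 0.512% of 14244 probes were called, and nothing is read from this count. Without the 3 testis-rich HL arrays the difference was 0.90 ± 0.23 and the probe was no longer past the threshold. Without every array over 2-fold in testis signal the difference was 1.08 ± 0.20. The geometric mean of 10 adipocyte markers went down to 931.0 units in HL and to 2808 in HH (highest arrays 3971 and 3998). The group medians were close, at 3234 and 3349 units. Over these markers the median log2 difference was 0.36 (10 of 10 higher in HH), and 0.01 (6 of 10) without the testis-rich arrays. Their part in the Tuba1a difference was not tested. Across 20 alternative settings the Tuba1a log2 difference lay between 0.90 and 1.55. The post-weaning difference was 0.44 ± 0.44 larger on the log2 scale in offspring of HF fed than of LF fed dams, again a description. This value was 0.36 ± 0.45 without the testis-rich arrays and 0.82 ± 0.41 without every array over 2-fold in testis signal.

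Maternal diet was compared within each post-weaning diet. Among LF fed offspring Tuba1a was 1.51-fold lower in HL than in LL (log2 difference -0.60 ± 0.28, limma, adjusted p = 1.0, unadjusted p = 0.047), and no HL animal reached the LL median. Limma called 0% of probes in this comparison, with 154 of 14244 at an unadjusted p under 0.05. This comparison shares the HL animals with the one that chose the gene. Without the 5 testis-rich arrays the difference was -0.51 ± 0.27 (limma, unadjusted p = 0.0751, adjusted p = 1.0), with the testis list as a covariate -0.44 ± 0.20, and without the 11 arrays with over 2-fold testis signal -0.79 ± 0.16 (limma, adjusted p = 0.372). Among HF fed offspring HH and LH differed by -0.15 ± 0.31 (limma, adjusted p = 0.856), and by -0.15 ± 0.33 without the testis-rich array of LH, with 0% of probes called and 1775 at an unadjusted p under 0.05. Its sign turned in 4 of 20 alternatives. Of the 10 tubulin probes, limma called 0 in either comparison, with 1 (Tuba1a) and 0 at an unadjusted p under 0.05.

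**Figure D2:**
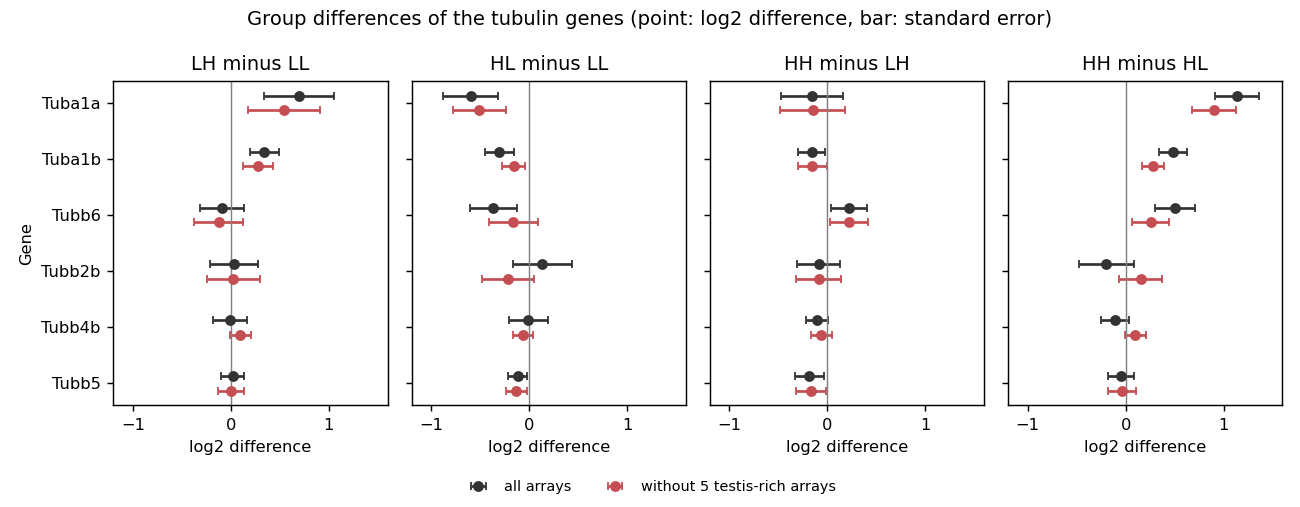
Log2 differences (points) with standard errors (bars) of the 6 tubulin genes past the filter in the comparisons LH minus LL, HL minus LL, HH minus LH and HH minus HL, with all arrays (black) and without the 5 testis-rich arrays (red). In HH minus HL, Tuba1a moves from 1.14 to 0.90 when those arrays are left out.

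Tuba1a also differed between cages of the same group. The 4 LH animals of cages 4 and 14 had 12242 to 15705 units, whereas the 3 of cage 9 had 2164.5 to 7746 and the 3 of cage 11 had 5715 to 7628. Both post-weaning diets were present in 5 cages, and in 5 of 5 every HF fed animal lay above every LF fed animal. Cages 10, 20 and 23 held HH and HL animals, whose comparison chose the gene, so their separation is a description. With 1 to 3 animals per diet in a cage, separation can also arise by chance, and its share over all probes was not counted. In cage 4, LH read 14215 to 15705 units against 1841 to 9773 in LL. In cage 11, LH read 5715 to 7628 against 4085 to 4427 in LL. Both are cages of LF fed dams, and the groups did not overlap in either. In the cages of HF fed dams, the HH animal of cage 10 read 11592 units against 2287 and 5165 in HL, cage 20 held 4674 to 11108 in HH against 2052 in HL, and cage 23 held 5829 to 10533 against 2011 to 3643. The mean within-cage log2 difference was 1.43 over the 5 cages, and 0.92 over the 4 cages that still held both diets without testis-rich arrays. Both means include cages of the comparison that chose the gene.

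The cages of LF fed dams held animals that did not choose the gene. Without LL animal 4, the testis-rich and lowest animal of cage 4, the Tuba1a difference in that cage was 0.87 on the log2 scale in place of 1.59, and cage 11 gave 0.62. For Tuba1b the same cages gave 0.60 (without LL animal 4) and 0.23. With cage as a fixed block the fit over all probes gave 1.11 ± 0.46 for Tuba1a in LH minus LL (limma, adjusted p = 0.363), which did not pass the test. That difference rests on the 2 cages of LF fed dams with both diets, and it includes LL animal 4.

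**Figure D3:**
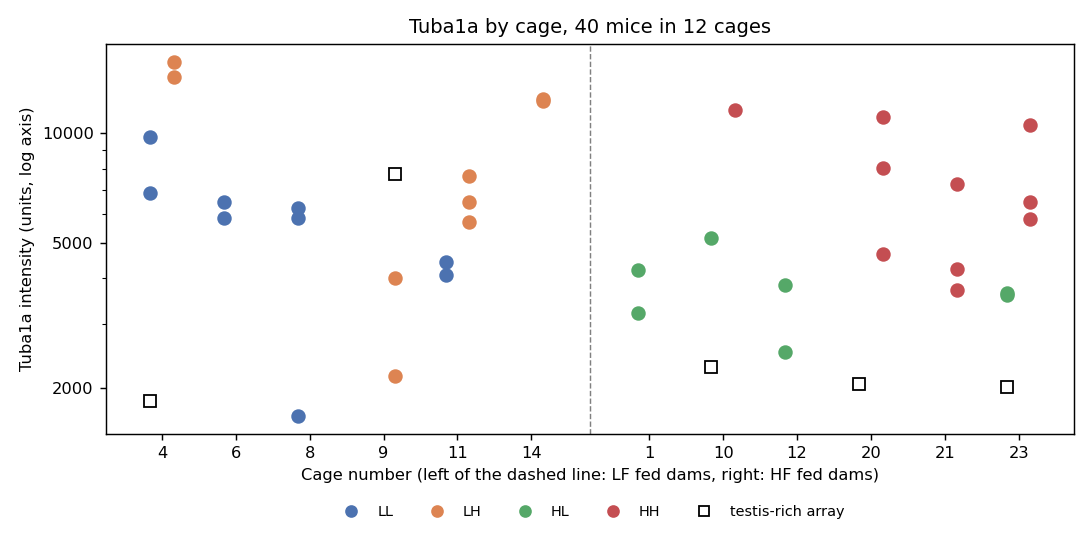
Tuba1a intensity (units, log axis) of each of the 40 animals by breeding cage, cages of LF fed dams left of the dashed line and of HF fed dams right of it, coloured by group, with testis-rich arrays as open squares. In all 5 cages with both diets (4, 11, 10, 20 and 23) the HF fed animals lie above the LF fed ones. Cages 10, 20 and 23 hold animals of the comparison that chose the gene.

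Tuba1b, the closest relative of Tuba1a and the main α-tubulin of many proliferating cells, gave differences of the same sign as Tuba1a in all 4 comparisons, smaller ones except in HH minus LH. It ran from 11388 to 22779 units in LL (median 18557), 13854 to 32471 in LH (22405), 8616 to 18165 in HL (15553) and 14327 to 25801 in HH (20170.3). The groups overlapped throughout, and HL was again lowest. The log2 difference was 0.34 ± 0.15 between LH and LL (limma, adjusted p = 0.354), -0.30 ± 0.15 between HL and LL (adjusted p = 1.0 in limma; -0.16 ± 0.12 without the testis-rich arrays) and -0.16 ± 0.14 between HH and LH (adjusted p = 0.631 in limma). HH exceeded HL by 0.49 ± 0.14 with all arrays and by 0.28 without the testis-rich ones. The HF fed animals were higher on average in 5 of 5 mixed cages and fully above in 4, counting the cages of the comparison that chose Tuba1a. Probe sequences were not used here, and the 2 genes encode almost identical proteins, so signal shared between their probes was not tested.

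Tubb6, a β-tubulin of many non-neuronal tissues, followed Tuba1a among animals and overlapped between all groups. Its range was 524 to 2865 units in LL, 823 to 1733 in LH, 538 to 1618 in HL and 835 to 2918 in HH. Medians lay close together, at 1285.5, 1213, 1089 and 1314 units in the same order. LH minus LL was -0.09 ± 0.23 (limma, adjusted p = 0.882), HL minus LL was -0.37 ± 0.24 (limma, adjusted p = 1.0, and -0.16 ± 0.25 without the testis-rich arrays) and HH minus LH was 0.22 ± 0.18 (limma, adjusted p = 0.61). HH minus HL was 0.50 ± 0.20 with all arrays and 0.26 without the 3 testis-rich HL arrays, which held 538, 626 and 890 units, below the remaining 7 of HL.

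The other β-tubulins gave small differences. Tubb5, the β-tubulin of dividing and immune cells, kept group medians of 3856 to 4463 units, and its log2 differences lay between -0.18 ± 0.15 (HH minus LH; limma, adjusted p = 0.596) and 0.02 ± 0.12 (LH minus LL; limma, adjusted p = 0.953). Tubb4b had medians of 2432 to 2573 units, and its differences ran from -0.11 ± 0.11 (HH minus LH; limma, adjusted p = 0.687) to -0.01 ± 0.20 (HL minus LL; limma, adjusted p = 1.0) in the tested comparisons. For Tubb4b, LH minus LL was -0.01 ± 0.18 with all arrays and 0.10 ± 0.10 without the testis-rich ones. HH minus HL, a description, was -0.11 ± 0.14 with all arrays and 0.10 ± 0.11 without them. The ranges of both genes overlapped between groups, with 1 animal beyond the rest in each: LL animal 4 for Tubb4b, at 7187.5 units, and HH animal 6 for Tubb5, at 2053.3 units.

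Tubb2b, a β-tubulin of the developing nervous system, was covered by 6 probes that disagreed. The brightest, ILMN_1377919, had medians of 905 to 1066 units and, in the tested comparisons, differences between -0.09 ± 0.22 (HH minus LH) and 0.14 ± 0.30 (HL minus LL; limma, adjusted p = 1.0). In HH minus HL it gave -0.20 ± 0.28, and 0.15 ± 0.22 without the testis-rich arrays. The next, ILMN_2588051, read 407 to 872 units in LL and 516 to 1383 in LH, a difference of 0.34 ± 0.17 (limma, adjusted p = 0.402). Another 3 probes had group medians of 116 to 128 units, and the last was above background on 0 of 40 arrays. Which transcript each detects was not tested, since Tubb2a and Tubb2b are close copies. The Tubb2a probe was above background on 0 of 40 arrays and the Tuba4a probe on 3, so neither entered the group comparisons. Past the filter came 10 of the 14 probes, of 6 of the 9 genes.

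The testis-rich arrays shifted these probes in opposite directions. Tubb4b was above all other arrays of its group on 5 of 5: LL animal 4 read 7187.5 units against at most 3345 in the remaining 9 LL animals, and HL animals 2, 6 and 8 read 3267, 3520.1 and 4948 against at most 2602. LH animal 5 read 3666 units against at most 3289.9 in the rest of LH. Tuba1a, Tuba1b and Tubb6 were below their group on 3 of 5, all in HL, and inside it on 2. Tubb5 stayed inside its group on 5 of 5. For Tuba1a, the 3 HL arrays held 2287, 2011 and 2052 units against 2511 to 5165 in the other 7.

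The α-tubulin genes Tuba3a and Tuba3b, whose products belong to the testis, were outside the list that defined these arrays. Tuba3a reached 4739.6 units in LL animal 4, where the other LL animals had 88.4 to 170.4, and was above its group on 5 of 5 testis-rich arrays. Tuba3b was above on 3 and Tuba8 on 4. Over the 35 other arrays, Tuba3a and Tuba3b instead followed Tuba1a, with r = 0.69 and 0.64 within groups. Of the 4 Tuba3a probes only this 1 passed the filter. On those arrays the others had group medians of 68.8 to 90.7 units, near background. Probe sequences were not used, so signal shared with the Tuba1a and Tuba1b probes was not tested. The part of the neighbouring tissue in the Tuba1a difference was not tested beyond leaving arrays out: HH minus HL was 0.92 ± 0.20 with the testis list as a covariate.

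**Figure D4:**
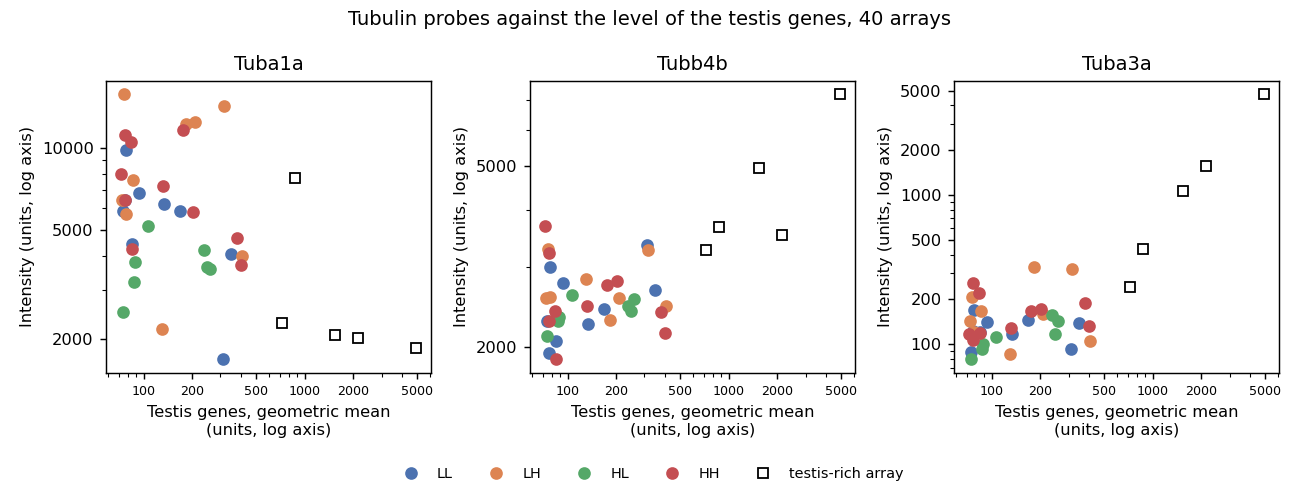
Intensity of Tuba1a, Tubb4b and Tuba3a (units, log axis) against the geometric mean of the testis genes (units, log axis) on 40 arrays, coloured by group, with the 5 testis-rich arrays as open squares. Tubb4b and Tuba3a are highest in LL animal 4, at the right edge, where Tuba1a reads 1841 units.

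Genes whose products fold, modify, bind or move along tubulin were followed as lists. No member of the lists of other tubulins (8 tested), tubulin folding (17), tubulin modification (7), microtubule binding (15), nucleation and severing (7) and motors (11) was called in any of the 4 comparisons by limma. Over all probes, limma called 0.218% in LH minus LL, 0% in HL minus LL and in HH minus LH, and 0.512% in HH minus HL. With shares this low, nothing is read from the absence of calls among the listed genes. Of these 65 genes, 4 had an unadjusted p under 0.05 in LH minus LL, 0 in HL minus LL, 6 in HH minus LH and 3 in HH minus HL, beside 12.8%, 1.08%, 12.5% and 16.9% of all probes. The median log2 difference in HH minus HL was -0.03 for other tubulins, 0.01 for folding, 0.01 for modification, 0.05 for binding, -0.04 for nucleation and severing and 0.07 for motors, beside 0.02 over all probes. Those with the smallest p included Cct6a, a subunit of the chaperonin that folds tubulin (LH minus LL, 0.17 ± 0.06, limma, adjusted p = 0.289), and Stmn1, which sequesters tubulin dimers (HH minus LH, 0.58 ± 0.25, limma, adjusted p = 0.35). Katna1, the catalytic subunit of the severing enzyme katanin, gave -0.18 ± 0.07 in HH minus LH (limma, adjusted p = 0.289). Kif1b, a kinesin motor, gave 0.44 ± 0.18 in HH minus HL and 0.21 ± 0.16 without the testis-rich arrays, a description, since that comparison chose Tuba1a.

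The list of actin and vimentin genes was also chosen with results of these data known, and HH minus HL chose Tuba1a. Its values in that comparison are therefore a description. Of its 6 genes past the filter, 1 was past the threshold there, where 0.512% of all probes were called. That gene was Tmsb10, a thymosin that binds actin monomers, 1.62-fold higher in HH than in HL (0.69 ± 0.15 on the log2 scale). Without the testis-rich arrays its difference was 0.60 ± 0.16, no longer past the threshold. Vim, the intermediate filament vimentin, gave 0.75 ± 0.34 and only 0.15 ± 0.19 without those arrays. A list of 7 genes linked to fat pad expansion was picked with results of these data known, so its values are a description without a test. In HH against HL, Mest, an imprinted gene of enlarging fat, was 3.78-fold higher, Sfrp5, a secreted WNT antagonist, 2.84-fold, Trp53inp2 2.50-fold and the imprinted gene Peg3 1.90-fold. Without the testis-rich arrays these were 2.82-fold, 2.41-fold, 2.05-fold and 1.78-fold.

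Among animals of the same group, Tuba1a varied together with Tuba1b more than with any other member. Over the 35 arrays that were not testis-rich, Pearson r of residuals from group means was 0.89 with Tuba1b and 0.75 with Tubb6, and 0.39, 0.25 and 0.20 with Tubb5, Tubb2b and Tubb4b. Over all 40 arrays, groups included, the values were 0.92, 0.72, 0.30, 0.01 and -0.22. The Tubb2b values are those of its brightest probe and depend on that choice. Its other probes past the filter gave 0.35 to 0.61 over the 35 arrays. Among them ILMN_2588051 gave 0.53, and 0.66 over all 40. Tubb4b, Tubb5 and Tubb2b correlated with each other at 0.50 to 0.55 within groups. These are descriptions over animals that share litters and an array normalization. The 35 arrays include LL animal 1, which was not testis-rich but was high in epididymis and seminal vesicle genes. Of 13407 named probes, Tuba1b ranked 1 by likeness to Tuba1a, and the median probe had r = 0.03.

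Outside the tubulins the 8 genes most like Tuba1a within groups were led by Serpinh1, the collagen chaperone of the endoplasmic reticulum (r = 0.85 over 35 arrays, 0.88 over 40). It was followed by Coro1c, an actin-binding coronin (0.83 and 0.59), Clmp, an adhesion molecule of adipocytes (0.83 and 0.54), Olfm1, a secreted olfactomedin (0.82 and 0.84), the histone gene H2bc15 (0.82 and 0.69), Rbm28, a nucleolar RNA-binding protein (0.81 and 0.87), Adamtsl4, a matrix protein (0.81 and 0.80), and the basement membrane collagen Col15a1 (0.81 and 0.79). LL animal 1, high in epididymis and seminal vesicle genes, had the lowest value of the 35 arrays for Tuba1a and for each of these 8 genes. It read 1677 units for Tuba1a, 220.2 for Serpinh1 and 303.1 for Olfm1. How far the r values and the choice of the 8 rest on this array was not tested. The 3 Mest probes gave 0.73 to 0.80 within groups, and Vim 0.68. Against the lists' mean levels, Tuba1a gave 0.73 with the fat pad expansion list, 0.58 with fibroblast and matrix genes, 0.53 with mesothelium, 0.44 with adipocyte genes, 0.37 with macrophage genes and 0.19 with endothelium, and -0.03 with mast cell genes and -0.29 with the testis list. Single genes differed within these lists. Probes of fibroblast and matrix genes ran from -0.63 (Pdgfra) to 0.61 (Loxl1), with Col1a1 at 0.125. Those of mesothelium ran from 0.15 (Krt19) to 0.575 (Msln). In the fat pad expansion list Peg3 gave -0.27 and Sfrp5 0.36, and the other genes 0.54 to 0.80. In HL the fibroblast and matrix level ran from 1109.7 to 2453.5 units and in HH from 1567 to 3056. The median log2 difference in HH minus HL was 0.50 for fibroblast and matrix (7 of 8 genes higher), 0.50 for macrophage (6 of 6), 0.48 for endothelium (6 of 6), 0.40 for mesothelium (5 of 6), 0.52 for mast cell (4 of 4) and -1.38 for testis (0 of 7). Without the testis-rich arrays these medians were 0.28, 0.09, 0.17, 0.05, 0.23 and 0.06. Their part in the Tuba1a difference was not tested.

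**Figure D5:**
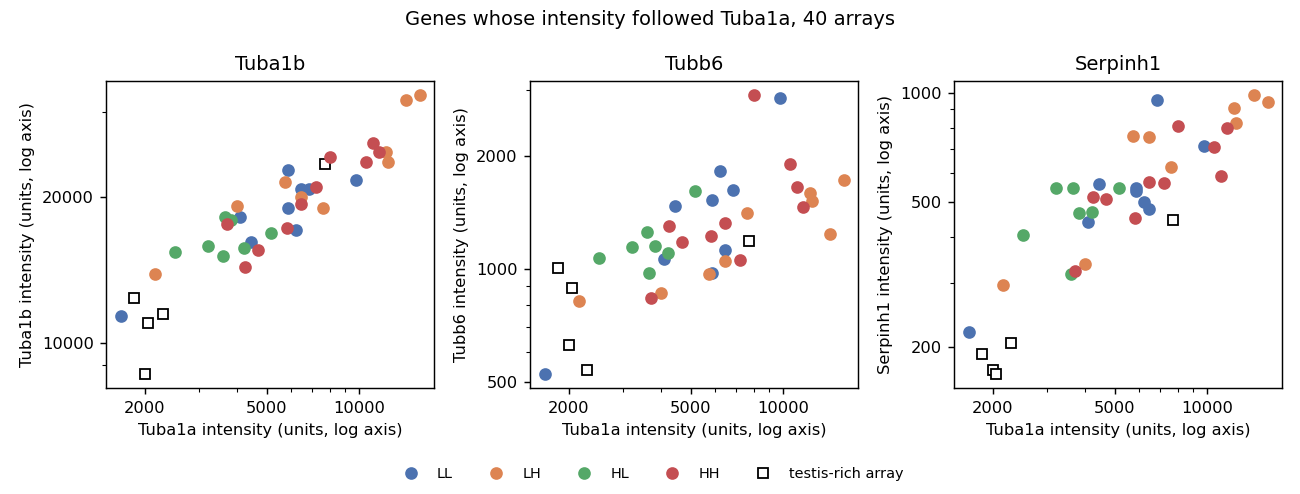
Intensity of Tuba1b, Tubb6 and Serpinh1 (units, log axis) against Tuba1a (units, log axis) on 40 arrays, coloured by group, with the 5 testis-rich arrays as open squares. Pearson r over all arrays is 0.92 for Tuba1b, 0.72 for Tubb6 and 0.88 for Serpinh1.

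Body weight separated HF fed from LF fed animals, so it was related to the tubulins within groups. For Tuba1a, r with the second body weight was 0.08 for LL, 0.16 for LH, -0.09 for HL and 0.02 for HH animals (n = 10 per group, permutation p = 0.825, 0.672, 0.793 and 0.954), and rho was 0.13, 0.36, -0.19 and -0.16 (permutation p = 0.733, 0.313, 0.607 and 0.657). Without the 2 animals farthest from the median weight, r was -0.26, 0.71, -0.27 and -0.19. Of 32 relations over 8 genes and 4 groups, none passed after adjustment (lowest permutation adjusted p = 0.503 for r and 0.122 for rho), but 8 of them belong to Tuba4a and Tubb2a, whose probes lay near background. Over the other 24, a family set after seeing the data, the lowest permutation adjusted p was 0.377 for r (Tubb2b in HH) and 0.0914 for rho (Tubb4b in HL). Tubb4b in HL gave r = 0.62 and rho = 0.84 (permutation p = 0.0498 and 0.00381, r = 0.52 without 2 animals), and Tubb2b in HH gave r = 0.72 and rho = 0.62 (permutation p = 0.0157 and 0.0608, r = 0.51 without 2 animals). In the 7 HL animals without testis-rich arrays, r of Tuba1a was 0.77 and rho 0.79 (exact permutation p = 0.0405 and 0.048, adjusted p = 0.429 and 0.382 over 32 relations), and r was 0.34 without 2 of them. The testis-rich arrays held the highest Tubb4b values of HL. In the same 7 animals Tubb4b gave r = 0.78 and rho = 0.86 (exact permutation p = 0.0355 and 0.0238). Over 32 relations its permutation adjusted p was 0.429 and 0.364, and r was 0.41 without 2 of the animals.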

How the data were processed

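RNA of gonadal fat was measured in 40 mice on Illumina MouseRef-8 beadchips. The authors deposited intensity values on a linear scale, quantile-normalized over the 40 arrays, and the submitters' processing notes name BeadStudio. Sorted columns differed by at most 2.31%, so log2 values were taken as deposited. No background was subtracted, which shrinks folds of dim probes, and arrays carry no depth, so the number of animals limits the precision. Quantile normalization gives all arrays 1 distribution, so bright transcripts of another tissue take ranks from others.

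Probes were named from the platform annotation (23978 with 1 symbol, 0 with several, 1719 with none). A probe was kept when above background, the 95th percentile of 1304 odorant and vomeronasal receptor probes on that array (78.07 to 94.28 units), on at least 20 of 40 arrays, which left 14244 probes of 9795 genes. For each comparison only its 2 groups (20 arrays) entered the fit, by limma 3.58.1 in R 4.3.3 (lmFit, eBayes with an intensity trend, two-sided), since the study's methods let the variance depend on the level, with a Benjamini-Hochberg threshold of 0.05 over all kept probes, and tested on simulated data. Weight relations used 100000 resamples, or all permutations with fewer than 10 animals. They were adjusted over 32 relations, not the planned 36, as 1 gene had no probe. Other steps ran in Python 3.11.15 (pandas 2.3.3, numpy 2.4.6 and scipy 1.17.1), with plots by matplotlib 3.10.9. Alternatives changed the filter, offset, centring, array weights, trend, cage handling and the arrays included. For the relations to body weight they left out testis-rich arrays or used body length in place of weight.

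The gene's value is its brightest probe on average. All tubulin genes of the set are named, with, from each list, the genes called and up to 2 more by smallest p, and the 8 genes most like Tuba1a. Lists of marker genes for neighbouring and other cell types were also fitted. The 9 genes, the lists and this rule were chosen with earlier results of these data known. Promoters come from RefSeq, and 7 of the 9 genes were in that table. The label of the second body weight names weaning, although it follows the weight at 3 weeks by a wide margin.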

Additional observations from a re-analysis of the deposited data

Results flagged for a closer look

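Over the 10 tubulin probes past the filter in 4 groups, 2 of 40 probe-by-group sets held an animal far from the other 9, where chance gives about 1 set in 20. Tubb4b was alone in LL animal 4, at 7187.5 units against 3345 in the next animal, a gap of 0.583 of the whole log2 range. This array also had the highest testis list mean, 4938 units. Tubb5 was alone in HH animal 6, at 2053.3 units against 3336 in the next animal, a gap of 0.535 of the range, and that array was not testis-rich.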

How the results depend on the processing

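Of 643 alternative values for 30 group differences and 4 relations to body weight, 643 kept their side of the threshold or, where no test was made, moved by less than 1 SD, and 0 of the tested ones passed. The sign turned in 59, of which none was called. For Tuba1a and body weight the alternatives left out testis-rich arrays or used body length, another trait, in place of weight. With body length, r was 0.10 for LL, -0.41 for LH, -0.13 for HL and -0.30 for HH animals. Leaving out each cage in turn put the Tuba1a log2 difference between 0.49 and 1.08 (LH minus LL), -0.70 and -0.50 (HL minus LL), -0.54 and 0.09 (HH minus LH) and 1.01 and 1.35 (HH minus HL). In HH minus LH the sign turned without cage 4 (0.09), 14 (0.02) or 21 (0.06), and without the 11 arrays over 2-fold in testis signal (0.03). Over all probes, calls moved more: 31 in LH minus LL became 0 with cage means and 297 with array weights, 73 in HH minus HL became 2 and 601 under the same settings and 194 without the testis-rich arrays, 0 in HH minus LH became 18 with probes above background on all arrays and 157 with array weights, and 0 in the difference between dams became 1905 with array weights. Leaving out 1 cage gave 2 (cage 11) to 127 calls (cage 6) in LH minus LL, 3 (cage 23) to 134 (cage 12) in HH minus HL, and up to 116 (cage 14) in HH minus LH. Adjusted p of Tuba1a in LH minus LL ran from 0.212 to 0.881 in limma. No paired analysis was possible because the replicate numbers only name animals and the labels carry none, so cage took that place as a block. HH minus HL for Tuba1a lost the threshold without cage 10, 20 or 23, with cage means, in 1 model over all arrays, and without testis-rich or low-correlation arrays. Array intensities give no depth, and probes near background, such as those of Tubb2a and Tuba4a, are limited by signal.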
